A study of Homo sapiens with 6 samples.

Results

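The kinesin motor family was examined in U251 cells, a human glioma line, after a short hairpin RNA against CPVL, a serine carboxypeptidase gene. Members were all genes whose NCBI symbol is KIF, a number and at most 1 letter; the KIFC genes and KIFBP were not members. A RefSeq gene table held 40 such genes, of which 38 were measured among 18712 genes in all. KIF4B was represented only by a probe set shared with KIF4A, and the pseudogene KIF28P by none. The shCPVL cells carried a lentiviral hairpin against CPVL and the shCtrl cells a lentiviral negative control hairpin, and both were U251 cells with no other treatment named in the labels. Each group had 3 arrays. The labels give neither the hairpin sequences, nor how many hairpins or clones were used, nor the time between transduction and harvest. Nor is it said that replicates came from separate cultures, and a p-value here therefore reflects only array-to-array spread, possibly technical.

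Kinesins are motors that hydrolyse ATP to move along microtubules or to take their ends apart. One set works in cell division. These motors push the spindle poles apart, move chromosomes, shorten microtubule ends at kinetochores and organise the midzone at which the cell divides. Their transcripts typically accumulate in late S, G2 and M phase. Another set carries vesicles, mitochondria, endosomes and ciliary cargo, and is best known from the axons and dendrites of neurons, although astrocytes and glioma cells use it as well. By textbook role, 13 members were put down as mitotic (12 measured), 13 as transport motors (13 measured) and 14 as other (13 measured), the last being kinesins of cilia, regulators of microtubule growth and little-known members.

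The values were log2 RMA values, in which the distribution of each array is made equal, so every difference is relative to the bulk of the probes on the same array. Each gene was read from its brightest probe set, a group of short probes for 1 transcript. Differences are shCPVL minus shCtrl on the log2 scale, and a gene was said to have risen or fallen where limma, fitted to all genes, gave a Benjamini-Hochberg adjusted p under 0.05. CPVL itself was lower in every shCPVL array, at 7.28 ± 0.09 in shCPVL cells and 8.27 ± 0.11 in shCtrl cells (SD, n = 3 each; limma adjusted p = 8.3e-05), which left 50.5% of the control signal. Arrays correlated at 0.9974 to 0.9986 within a group and at 0.9918 to 0.9930 between groups. Of 13 astroglial or glioma markers, 12 lay above the mean of the background probe sets, and the astrocyte water channel gene AQP4 did not. Of 10 microglia and macrophage markers, 4 lay under that mean, the leukocyte gene PTPRC among them, and the others did not. Of the 13 astroglial or glioma markers, 5 fell and 0 rose, against 11.6% and 8.45% of all genes. GFAP at −1.01, FABP7 at −0.68 and SLC1A3 at −0.56 were the farthest from 0. Their part in the kinesin results was not tested. The hybridisation controls, RNA of bacterial and bacteriophage genes added before hybridisation, averaged 11.04 in shCPVL arrays and 10.74 in shCtrl arrays. The part of these controls in the results below was not tested. The 3′ minus 5′ difference of the GAPDH control probe sets, a sign of RNA quality, was −0.08 to −0.05 in shCPVL arrays and −0.07 to −0.03 in shCtrl arrays.

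Most mitotic kinesins were lower in shCPVL cells, with differences down to −0.52 on the log2 scale, while transport kinesins moved in both directions. Of the 38 kinesins, 12 fell and 4 rose, while 20.1% of all genes were called in either direction. Groups that did not overlap were lower in shCPVL cells for 15 kinesins and higher for 6, against 35.9% of all genes in either direction. Of 12 mitotic members, 9 fell and 0 rose, and the median difference was −0.28. Of 13 transport members, 1 fell and 3 rose, with a median of −0.04, and of the 13 others 2 fell and 1 rose, with a median of 0.01. Over all 18712 genes, 11.6% fell, 8.45% rose and the median difference was −0.01. The same 9 mitotic members had groups that did not overlap, all lower in shCPVL cells, where 19.8% of all genes were so. With a fold of at least 1.2, 6 mitotic members and 1 transport member fell, against 7.73% of all genes. At that fold 1 transport member rose, against 5.54% of all genes. The mitotic count ranged from 6 to 8 when 1 array was left out, and was lowest without shCPVL replicate 2.

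**Figure D1:**
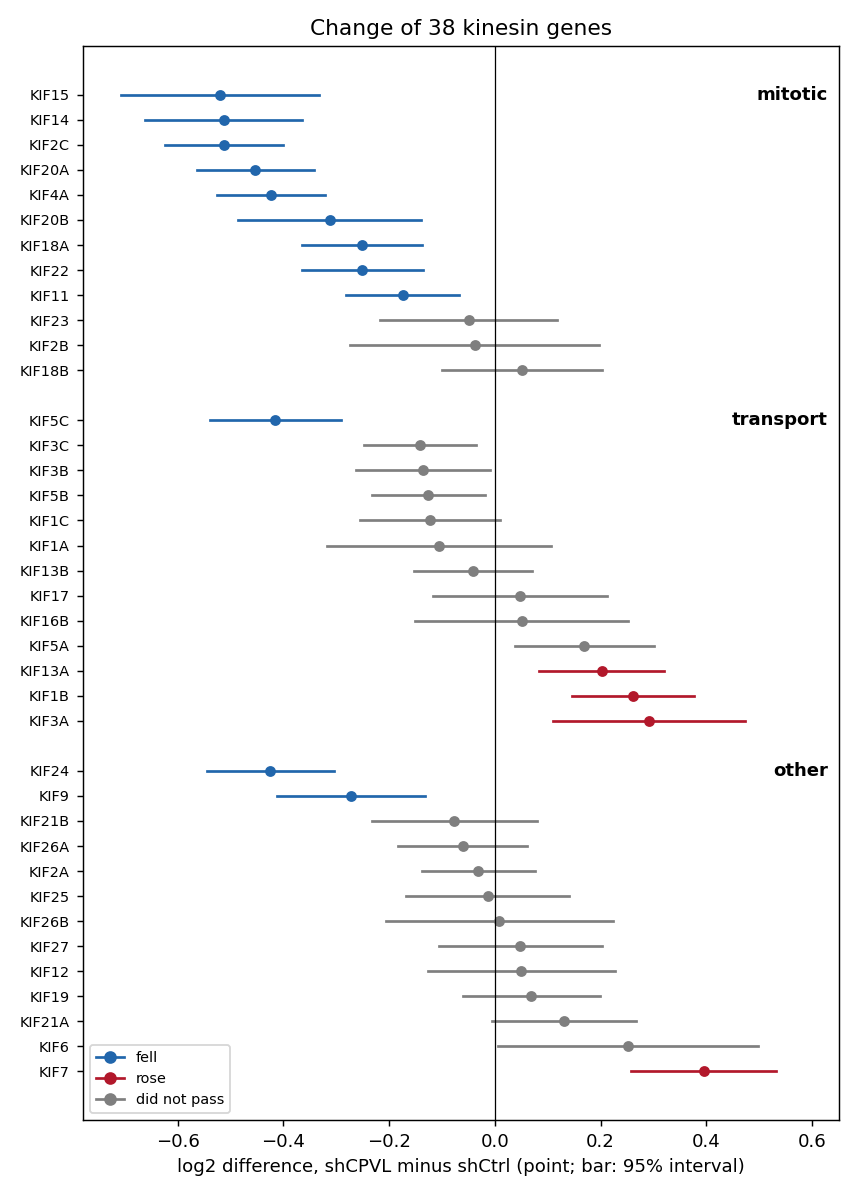
Difference of each measured kinesin gene (shCPVL minus shCtrl, log2 scale) with its 95% confidence interval from limma, by class and ordered by size. In all, 9 of the 12 mitotic genes lie left of 0 and are called (blue), while 1 transport gene is blue and 3 are red.

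Averaged over its members, each centred on its own mean over the 6 arrays, the mitotic class stood at −0.13, −0.14 and −0.16 in the shCPVL arrays and at 0.12, 0.15 and 0.16 in the shCtrl arrays. The transport class stood at −0.003, −0.005 and 0.0002 in the shCPVL arrays, against −0.007, 0.013 and 0.002 in the shCtrl arrays. The 2 groups of arrays are thus far apart for the mitotic mean and overlap for the transport mean. The mean difference of the mitotic class minus that of the transport class was −0.28. These class values are a description with no test, since the members were chosen with earlier results of these arrays known. The arrays read bulk RNA, in which a smaller share of dividing cells and less transcript per dividing cell cannot be told apart.

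**Figure D2:**
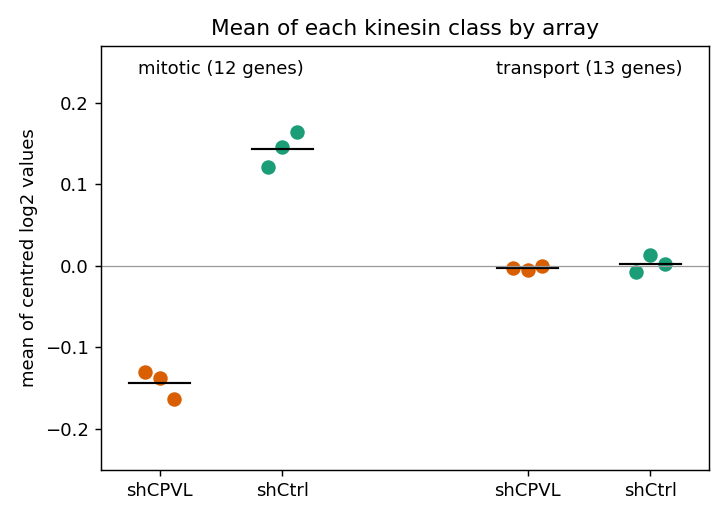
Mean of the mitotic (12 genes) and transport (13 genes) kinesins in each array, every gene centred on its own mean over the 6 arrays (log2 scale); points are arrays and lines group means. The shCPVL and shCtrl points are apart for the mitotic class, at −0.16 to −0.13 and 0.12 to 0.16, and overlap for the transport class.

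Among the motors of the spindle, KIF15, KIF2C, KIF18A and KIF11 fell, and KIF18B and KIF2B did not pass. KIF15, a plus-end motor that helps to keep a bipolar spindle, read 7.79, 7.71 and 7.58 in shCPVL cells, against 8.19, 8.35 and 8.09 in shCtrl cells. Every shCPVL value of KIF15 thus lay below every shCtrl value, a difference of −0.52 (SE 0.08, limma adjusted p = 0.0030). Its only probe set has the suffix s_at, which marks probes that can match more than 1 transcript, so KIF15 has no value without such probe sets. KIF2C, also known as MCAK, takes tubulin off microtubule ends and helps to correct wrong attachments at the kinetochore. It read 11.08, 11.11 and 11.08 in shCPVL cells and 11.63, 11.63 and 11.55 in shCtrl cells, so its arrays varied little within a group and the groups were far apart. Its signal in shCPVL cells was 70.1% of that in shCtrl cells, with a 95% confidence interval of 64.9% to 75.7% (limma adjusted p = 2.8e-04).

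KIF18A dampens the swinging of chromosomes at the metaphase plate. Its values were 9.29, 9.28 and 9.26 in shCPVL cells, against 9.49, 9.59 and 9.50 in shCtrl cells, a difference of −0.25 (SE 0.05, limma adjusted p = 0.0087). KIF11, also called Eg5, is the motor that slides antiparallel microtubules to separate the poles. It had 10.97, 10.94 and 10.91 in shCPVL cells and 11.14, 11.10 and 11.11 in shCtrl cells, the smallest fall of the class at −0.17 (SE 0.05, limma adjusted p = 0.032). The KIF11 groups did not overlap, but its call was lost whichever array was left out (limma adjusted p = 0.054 to 0.14). A second KIF11 probe set gave −0.20 (limma adjusted p = 0.030 over all probe sets).

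KIF18B, which shortens astral microtubules together with KIF2C, read 7.73, 7.85 and 7.93 in shCPVL cells and 7.78, 7.73 and 7.85 in shCtrl cells. The KIF18B groups overlapped, and the 95% confidence interval of the difference ran from −0.10 to 0.20. Another KIF18B probe set held the same 6 values to the last digit and so gives no further measurement. The 2 remaining ones read lower in shCPVL cells, at −0.17 each, and did not pass (limma adjusted p = 0.25 and 0.23 over all probe sets). KIF2B, a relative of KIF2C, was dimmer than the average background probe set, at 4.15 in shCPVL cells and 4.18 in shCtrl cells, so a change of it may not be visible.

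Both measured motors that act on chromosome arms fell. KIF4A, a chromokinesin that also sets the length of midzone microtubules with PRC1, read 9.35, 9.33 and 9.33 in shCPVL cells, against 9.78, 9.77 and 9.74 in shCtrl cells. The spread within each group was at most 0.02 (SD), and the difference was −0.42 (SE 0.04, limma adjusted p = 5.0e-04). A probe set that matches KIF4A and its near-identical copy KIF4B, which cannot be told apart there, fell by 0.46 (SE 0.06, limma adjusted p = 0.0013 over all probe sets). KIF22, also called Kid, pushes chromosome arms away from the poles. It read 9.01, 9.003 and 9.05 in shCPVL cells and 9.29, 9.31 and 9.21 in shCtrl cells, a difference of −0.25 (SE 0.05, limma adjusted p = 0.0094). All 3 KIF22 probe sets fell, by 0.25 to 0.35, of which the one without the suffix s_at fell by 0.26. The call of KIF22 was lost without shCPVL replicate 2 (−0.24, limma adjusted p = 0.051).

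Of the motors of cytokinesis, KIF14, KIF20A and KIF20B fell. KIF14, which brings citron kinase to the midbody, read 8.81, 8.68 and 8.62 in shCPVL cells, against 9.14, 9.23 and 9.26 in shCtrl cells, a difference of −0.51 (SE 0.06, limma adjusted p = 0.0011). The highest shCPVL value of KIF14 was below the lowest shCtrl value, and its second probe set fell by 0.45. KIF20A, also called MKLP2, carries the chromosomal passenger complex to the midzone. Its values were 10.55, 10.58 and 10.53 in shCPVL cells and 10.97, 11.05 and 11.01 in shCtrl cells, which left 73.1% of the control signal (95% confidence interval 67.7% to 78.9%, limma adjusted p = 5.1e-04). KIF20B, a motor of late cytokinesis, had 9.18, 9.05 and 8.96 in shCPVL cells, against 9.29, 9.34 and 9.48 in shCtrl cells. The KIF20B groups came close without overlapping (−0.31, SE 0.08, limma adjusted p = 0.022). Its call was lost without shCPVL replicate 2 or 3 or shCtrl replicate 3 (limma adjusted p = 0.078, 0.058 and 0.073).

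KIF23, also called MKLP1, forms the centralspindlin complex with RACGAP1. Its brighter probe set read 10.88, 10.91 and 10.77 in shCPVL cells and 10.79, 10.89 and 11.02 in shCtrl cells, so the groups overlapped (−0.05, 95% confidence interval −0.22 to 0.12). Its other probe set gave 10.18, 10.20 and 10.14 in shCPVL cells, against 10.37, 10.45 and 10.37 in shCtrl cells. There the groups were apart, and the probe set fell by 0.22 (limma adjusted p = 0.020 over all probe sets). KIF23 therefore passed or did not pass by the choice of probe set. RACGAP1 was at 10.32 ± 0.17 in shCPVL cells and 10.43 ± 0.18 in shCtrl cells (SD, n = 3 each), with overlapping groups.

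**Figure D3:**
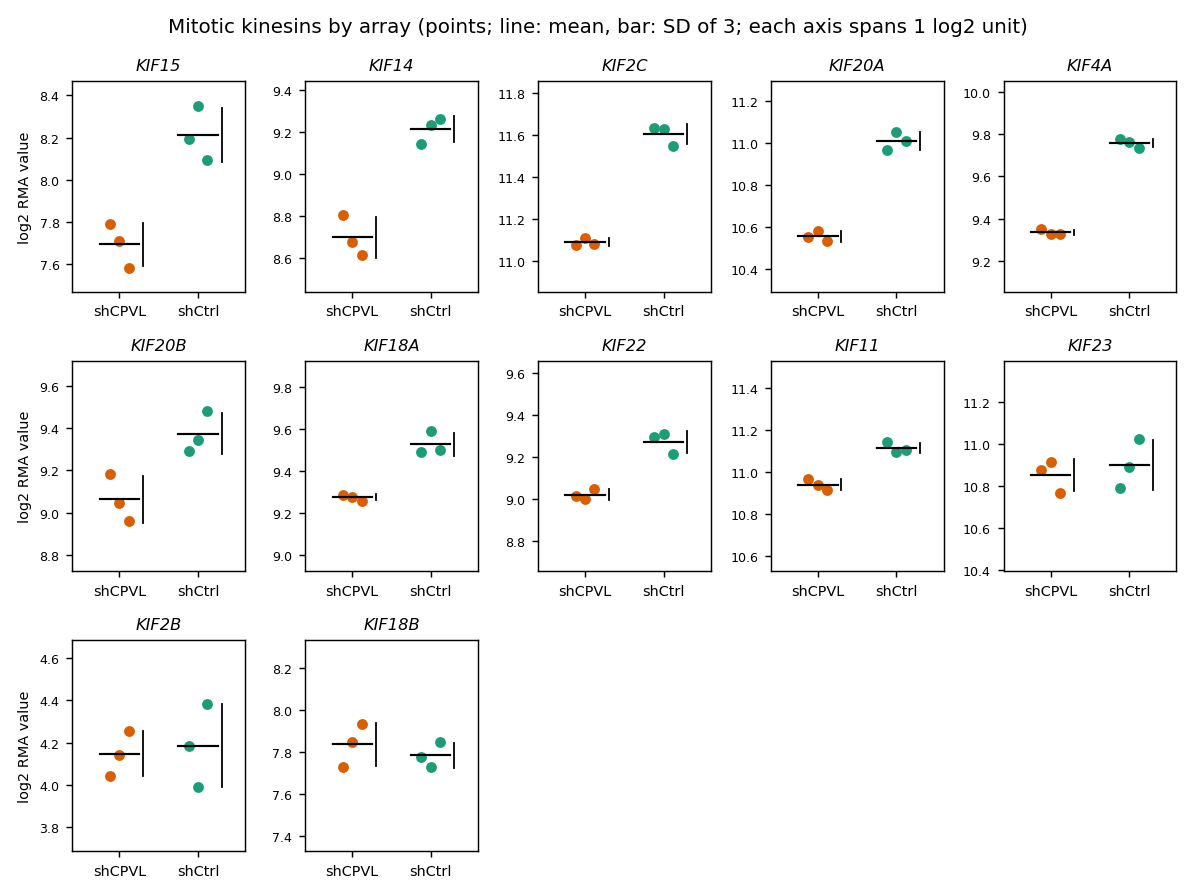
Log2 RMA value of the 12 measured mitotic kinesins in each array, shCPVL left and shCtrl right; points are arrays, lines means and bars SD of 3 arrays, and every axis spans 1 log2 unit. In the 9 genes from KIF15 to KIF11 all shCPVL points lie below all shCtrl points, while KIF23, KIF2B and KIF18B overlap.

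The promoters of the members were read beside these values. A link between the searched letters and the falls was not tested. RefSeq windows (GRCh38.p14) reaching from 250 bases before to 50 after the start were at hand for 33 kinesins, in 42 windows, since some genes have several starts. Both strands were searched for CCAAT, the letters bound by NF-Y, for TTTGAA and TTCGAA, 2 forms of the cell cycle genes homology region, at which the DREAM complex and B-MYB complexes are known to act in late cell cycle genes, and for TTTCCCGC, an E2F motif. TTCGAA reads the same on both strands. TTTGAA or TTCGAA stood in 11 of 14 mitotic windows (78.6%), 1 of 16 transport windows (6.25%) and 16.4% of all 35116 windows. Among the 11 were 2 overlapping windows of KIF22 and 1 window of KIF4B, which had no probe set of its own. CCAAT stood in 10 of 14 mitotic windows (71.4%), 5 of 16 transport windows (31.2%) and 34.6% of all windows. TTTCCCGC was found in 0 mitotic windows, 0 transport windows and 1.63% of all. In the 250 bases upstream alone, TTTGAA or TTCGAA was in 7 mitotic windows and 1 transport window, because the match lay at or after the start in KIF14, KIF18B, KIF20B and KIF4B. TTTGAA or TTCGAA went with the call in some mitotic members and not in others. KIF23 and KIF18B, which did not pass with their brightest probe sets, held TTTGAA, although another KIF23 probe set fell. KIF2B, which did not pass and lay under the background mean, held none of the searched letters. KIF2C and KIF20A, which fell, held neither TTTGAA nor TTCGAA in this window. Below are the 250 upstream bases of 4 mitotic members that fell and of 2 transport members that rose, with the searched letters in capitals. Counted from the start, KIF11 carries CCAAT (as ATTGG) at −53 and TTTGAA (as TTCAAA) at −28, and KIF22 carries ATTGG at −66 and TTCGAA at −27. KIF20A carries ATTGG at −94 and −67, KIF14 carries CCAAT at −22, and KIF3A and KIF13A hold none of the searched letters. Members not shown differ from this. KIF1B, a transport member that rose, carries ATTGG at −157 and −126 before 1 start and at −121 before another. KIF2C, a mitotic member that fell, holds none of the searched letters.
KIF11, chr10:92592880-92593129, plus strand: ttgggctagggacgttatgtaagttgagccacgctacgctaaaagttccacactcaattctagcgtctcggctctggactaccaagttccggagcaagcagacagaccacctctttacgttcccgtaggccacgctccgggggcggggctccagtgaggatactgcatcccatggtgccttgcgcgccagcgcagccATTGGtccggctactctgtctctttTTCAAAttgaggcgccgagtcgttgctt
KIF22, chr16:29790501-29790750, plus strand: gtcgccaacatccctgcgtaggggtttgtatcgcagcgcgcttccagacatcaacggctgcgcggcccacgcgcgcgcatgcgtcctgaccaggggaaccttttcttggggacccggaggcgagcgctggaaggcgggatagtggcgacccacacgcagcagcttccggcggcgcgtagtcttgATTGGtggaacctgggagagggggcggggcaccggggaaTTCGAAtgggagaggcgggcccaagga
KIF20A, chr5:138178862-138179111, plus strand: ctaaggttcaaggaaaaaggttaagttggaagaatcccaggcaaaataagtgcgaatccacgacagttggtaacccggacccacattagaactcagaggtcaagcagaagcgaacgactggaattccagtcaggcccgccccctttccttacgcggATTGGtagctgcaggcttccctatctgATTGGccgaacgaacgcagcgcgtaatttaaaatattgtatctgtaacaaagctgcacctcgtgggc
KIF14, chr1:200620752-200621001, minus strand: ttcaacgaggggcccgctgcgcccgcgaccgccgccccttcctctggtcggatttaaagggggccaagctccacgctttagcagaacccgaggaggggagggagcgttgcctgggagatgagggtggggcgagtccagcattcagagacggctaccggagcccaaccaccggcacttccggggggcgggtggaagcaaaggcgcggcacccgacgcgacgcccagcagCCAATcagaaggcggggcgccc
KIF3A, chr5:132737547-132737796, minus strand: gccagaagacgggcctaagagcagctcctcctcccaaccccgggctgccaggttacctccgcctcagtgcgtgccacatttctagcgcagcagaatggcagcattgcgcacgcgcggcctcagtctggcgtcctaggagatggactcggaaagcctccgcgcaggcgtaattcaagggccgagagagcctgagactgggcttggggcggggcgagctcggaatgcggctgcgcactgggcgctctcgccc
KIF13A, chr6:17987636-17987885, minus strand: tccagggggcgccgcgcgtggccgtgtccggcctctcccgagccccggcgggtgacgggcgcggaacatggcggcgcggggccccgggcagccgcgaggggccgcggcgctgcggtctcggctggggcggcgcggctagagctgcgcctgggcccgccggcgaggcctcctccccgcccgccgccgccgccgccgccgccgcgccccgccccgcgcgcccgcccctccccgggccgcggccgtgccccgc

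Transport kinesins were read by class of motor. In the kinesin-1 family, the heavy chains that carry mitochondria and vesicles with the kinesin light chains, KIF5C fell and KIF5A and KIF5B did not pass. KIF5C, an isoform best known from neurons, read 8.66, 8.58 and 8.51 in shCPVL cells, against 9.01, 8.99 and 9.002 in shCtrl cells, a difference of −0.42 (SE 0.05, limma adjusted p = 0.0013). The KIF5C groups were far apart. That probe set and another that fell (−0.41, limma adjusted p = 0.025 over all probe sets) have the suffix s_at. The only KIF5C probe set without it lay under the background mean, with a difference of −0.03. KIF5B, the form found in all tissues, read 11.82, 11.85 and 11.79 in shCPVL cells and 11.95, 11.92 and 11.97 in shCtrl cells. All 4 KIF5B probe sets were lower in shCPVL cells, at −0.17 to −0.13, but KIF5B did not pass (limma adjusted p = 0.10), with a 95% confidence interval of −0.23 to −0.02. KIF5A, a neuronal form, read 7.27, 7.23 and 7.35 in shCPVL cells, against 7.18, 7.11 and 7.05 in shCtrl cells. Here every shCPVL value was above every shCtrl value, and the gene did not pass (0.17, limma adjusted p = 0.077).

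Of the kinesin-2 motors, which drive transport inside cilia, the subunit genes KIF3A and KIF3B differed in direction. KIF3A read 9.12, 9.04 and 8.83 in shCPVL cells and 8.64, 8.75 and 8.73 in shCtrl cells, and rose by 0.29 (SE 0.08, limma adjusted p = 0.035). The lowest shCPVL value was above the highest shCtrl value, but leaving out any array but shCPVL replicate 3 ended the call (limma adjusted p = 0.058 to 0.12). The KIF3A probe set that rose also has the suffix s_at, and the other KIF3A probe sets, without it, gave 0.15 and −0.01 and did not pass. KIF3B, the partner of KIF3A in the heterotrimer, had 9.56, 9.52 and 9.54 in shCPVL cells, against 9.70, 9.74 and 9.59 in shCtrl cells. It was lower in every shCPVL array and did not pass (−0.14, limma adjusted p = 0.13). KIFAP3, the adaptor of that heterotrimer, differed by −0.05, with overlapping groups. KIF3C, which can also pair with KIF3A, read 8.22, 8.19 and 8.21 in shCPVL cells and 8.37, 8.37 and 8.31 in shCtrl cells. KIF3C did not pass with its brightest probe set (−0.14, limma adjusted p = 0.067), whereas a dimmer one fell by 0.36 (limma adjusted p = 0.0026 over all probe sets). KIF17, a homodimeric motor of cilia and dendrites, was at 6.05 ± 0.13 in shCPVL cells and 6.001 ± 0.05 in shCtrl cells (SD, n = 3 each).

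KIF1B, a kinesin-3 gene, had probe sets that moved in opposite directions. It encodes a shorter and a longer motor that share the motor domain and differ in the tail, and that carry mitochondria and precursors of synaptic vesicles. The brightest probe set read 10.68, 10.60 and 10.58 in shCPVL cells, against 10.35, 10.38 and 10.34 in shCtrl cells, and rose by 0.26 (SE 0.05, limma adjusted p = 0.0080). In the authors' deposited table it is aligned to chromosome 1 from 10270763 to 10368652 on the plus strand, in a build that the table does not name, as are 2 other probe sets with differences of 0.23 and 0.14. The 3 remaining KIF1B probe sets are aligned further, up to 10441661 or 10437995. One of these read 8.63, 8.46 and 8.41 in shCPVL cells and 8.85, 8.90 and 8.84 in shCtrl cells, and fell by 0.36 (SE 0.07, limma adjusted p = 0.0066 over all probe sets). The groups did not overlap in either of these 2 probe sets. The last 2 gave −0.15 and 0.01 and did not pass. With the mean of its probe sets KIF1B was no longer called (0.02, limma adjusted p = 0.81). The mean of the 3 probe sets on the shorter alignment minus that of the 3 on the longer ones was 2.67, 2.65 and 2.59 in shCPVL arrays and 2.23, 2.29 and 2.25 in shCtrl arrays. This gap was larger in every shCPVL array, by 0.38 on average (two-sided exact permutation p = 0.1, the smallest that 3 against 3 arrays allow). The comparison was chosen after the values were seen, so this p-value lends it no support. KIF1B was the only kinesin with probe sets called in both directions.

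Of the other kinesin-3 transport genes, KIF13A rose and 4 did not pass. KIF13A, a motor of endosomes and melanosomes, read 6.78, 6.81 and 6.72 in shCPVL cells, against 6.55, 6.54 and 6.62 in shCtrl cells, a rise of 0.20 (SE 0.05, limma adjusted p = 0.027). Its groups did not overlap, and its call was lost without shCPVL replicate 1 or 2 or shCtrl replicate 1 or 2 (limma adjusted p = 0.072 to 0.12). A second KIF13A probe set, aligned over 223873 bases where the first spans 18975, gave −0.01. KIF1C, which carries dense-core vesicles and integrins, had 8.79, 8.87 and 8.79 in shCPVL cells and 8.97, 8.995 and 8.85 in shCtrl cells, with overlapping groups (−0.12, limma adjusted p = 0.19). KIF1A, the axonal motor of synaptic vesicle precursors, was at 6.87 ± 0.11 in shCPVL cells and 6.97 ± 0.16 in shCtrl cells (SD, n = 3 each). KIF13B differed by −0.04, and KIF16B, an early endosome motor, by 0.05. The groups of these 3 genes overlapped.

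**Figure D4:**
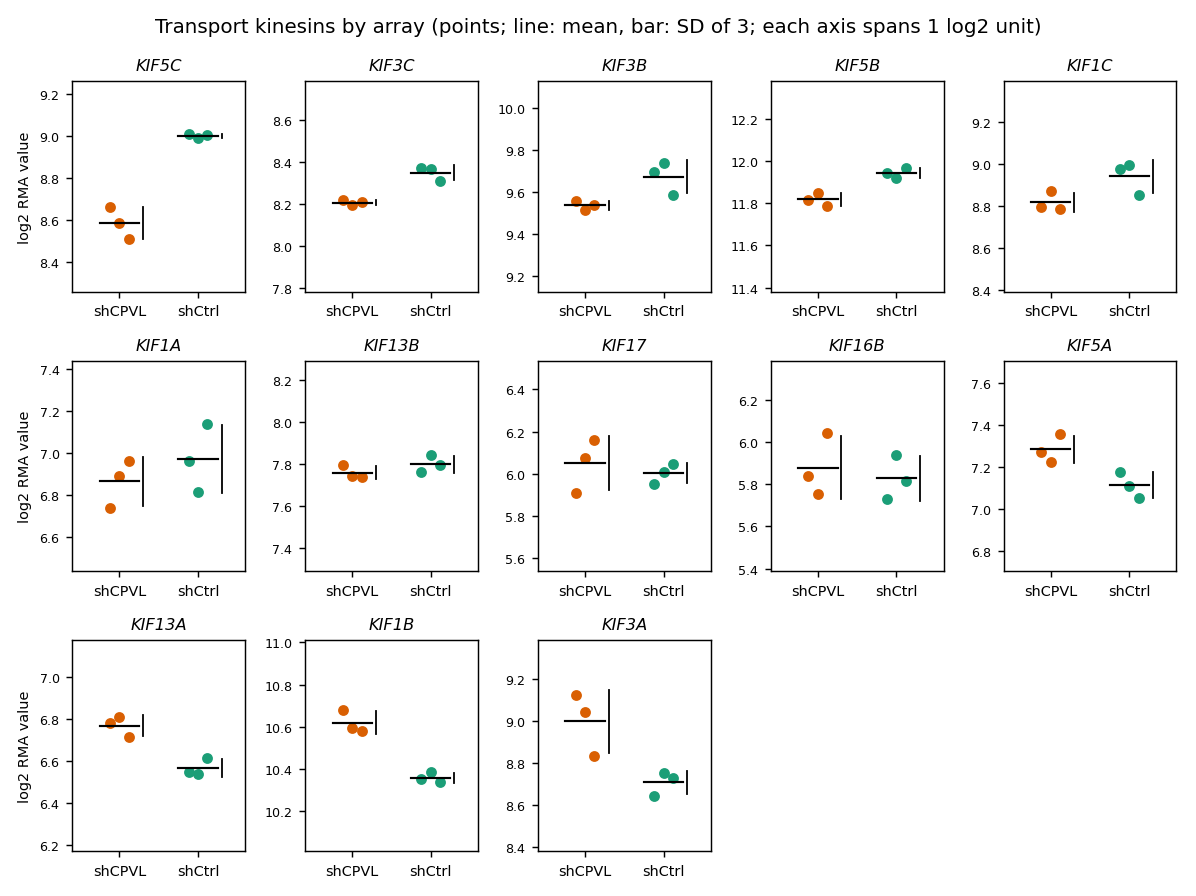
Log2 RMA value of the 13 transport kinesins in each array, shCPVL left and shCtrl right; points are arrays, lines means and bars SD of 3 arrays, and every axis spans 1 log2 unit. KIF5C is lower in all shCPVL arrays, KIF13A, KIF1B and KIF3A are higher in all of them, KIF5A, KIF3B, KIF3C and KIF5B have separate groups without passing, and the other 5 overlap.

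Several transport motors are best known from neurons, and the neuronal markers were therefore read beside them. Of 11 markers, 2 rose and 1 fell, against 8.45% and 11.6% of all genes, and 6 differences were negative, with a median of −0.001. Their summed signal on the log2 scale was 14.21 to 14.28 in shCPVL arrays and 13.86 to 14.12 in shCtrl arrays. NEFL, at 13.89 ± 0.05 in shCPVL cells and 13.54 ± 0.20 in shCtrl cells (SD, n = 3 each), made up most of that sum. NEFL and SYT1 rose (0.36 and 0.48) and ENO2 fell (−0.79). The pan-neuronal genes RBFOX3 and SNAP25 differed by −0.02 and −0.001. The part of these markers in the transport results was not tested.

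Among the kinesins outside both classes, 1 of 6 linked to cilia rose and 2 fell, and none of the remaining 7 measured members passed, where 8.45% of all genes rose and 11.6% fell. KIF7, which travels to the ciliary tip and restrains GLI factors in Hedgehog signalling, read 7.72, 7.58 and 7.60 in shCPVL cells, against 7.17, 7.28 and 7.28 in shCtrl cells. Its groups were apart, and it rose by 0.39 (SE 0.06, limma adjusted p = 0.0026), the largest rise among the 38 measured kinesins. KIF24, which removes tubulin at the mother centriole and holds back cilium formation, read 6.58, 6.57 and 6.66 in shCPVL cells and 6.99, 7.09 and 7.01 in shCtrl cells. It fell by 0.42 (SE 0.05, limma adjusted p = 0.0010) with groups far apart, while its dimmer probe set gave −0.16 and did not pass. KIF24 also held CCAAT at 3 places and TTCGAA in its RefSeq window. KIF9, a motor of motile cilia, had 8.35, 8.40 and 8.36 in shCPVL cells, against 8.62, 8.75 and 8.56 in shCtrl cells, and fell by 0.27 (SE 0.06, limma adjusted p = 0.015). The KIF9 probe set that fell is aligned over only 7524 bases, and the 2 aligned over 54823 and 47084 bases gave −0.02 and 0.06 with overlapping groups.

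KIF6, another cilium motor, read 6.36, 6.35 and 6.64 in shCPVL cells and 6.38, 6.03 and 6.19 in shCtrl cells, with overlapping groups (0.25, limma adjusted p = 0.15). KIF21A, which holds back microtubule growth at the cell cortex, was at 9.36 ± 0.07 in shCPVL cells and 9.23 ± 0.07 in shCtrl cells (SD, n = 3 each), groups that did not overlap although the gene did not pass (limma adjusted p = 0.18). KIF2A, which takes microtubule ends apart at spindle poles and in growing axons, differed by −0.03, and its dimmer probe sets by −0.03 and −0.05. The 95% confidence interval of the first ran from −0.14 to 0.08. KIF12, KIF19, KIF21B and KIF26B differed by −0.08 to 0.07. KIF25, KIF26A and KIF27 lay under the background mean in both groups, and their differences, −0.06 to 0.05, may hide a change.

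Over the 93 probe sets of the 38 genes, 27 were called, against 18.5% of all 49293 probe sets. Of 22 mitotic probe sets 16 fell and 0 rose, and the 22 include 2 of KIF18B with the same values, neither called. Of 41 transport probe sets 4 fell and 4 rose, a share near the 18.5% of all probe sets. Among the 30 probe sets of the other kinesins 2 fell and 1 rose. Several probe sets were present for 26 genes. Of the 11 genes among them that were called, 7 had a second probe set called in the same direction, and KIF3A, KIF9, KIF13A and KIF24 did not.

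**Figure D5:**
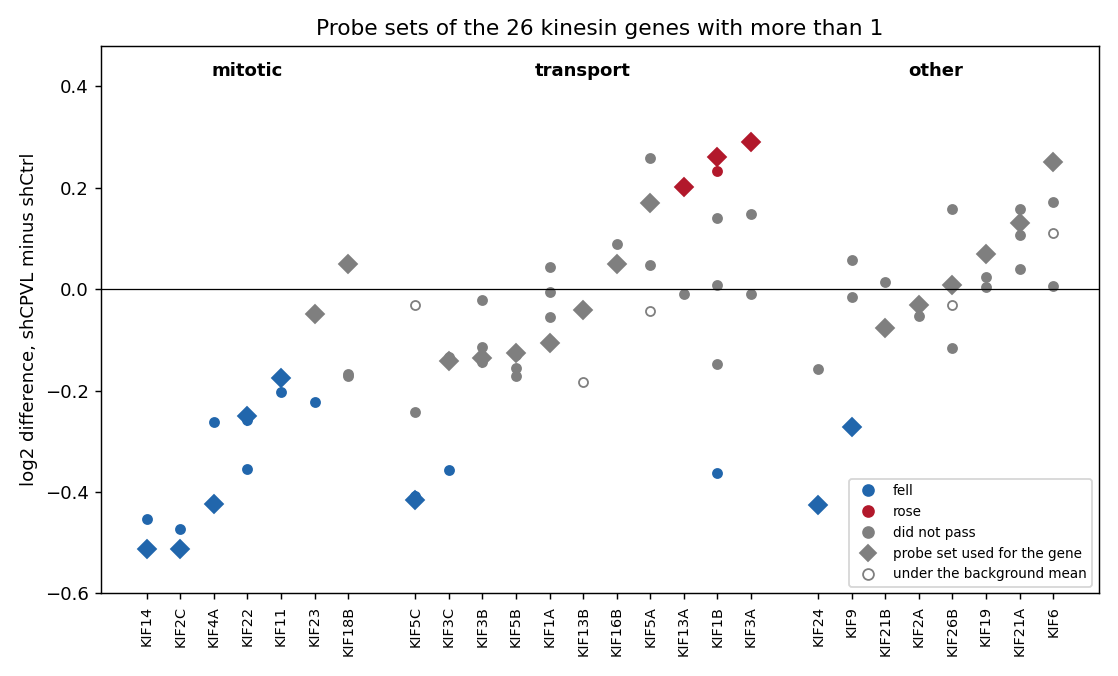
Difference of every probe set (shCPVL minus shCtrl, log2 scale) of the 26 kinesin genes with more than 1 probe set; diamonds mark the probe set used for the gene, colours the call over all probe sets, and open points lie under the background mean. The probe sets of KIF14, KIF2C, KIF4A, KIF22 and KIF11 are all called lower, while KIF1B has probe sets called on both sides of 0.

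Kinesins that carry other symbols were also read. CENPE, the kinetochore motor that moves chromosomes to the metaphase plate, read 9.18, 9.12 and 9.15 in shCPVL cells, against 9.65, 9.74 and 9.69 in shCtrl cells. With −0.54 (SE 0.05, limma adjusted p = 2.3e-04) its difference was of the size of those of KIF15, KIF14 and KIF2C. KIFC1, a minus-end motor that gathers spindle poles, fell by 0.28 (SE 0.05, limma adjusted p = 0.0062) with groups apart. KIFC2 and KIFC3 did not pass (0.18 and 0.02).

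Of 24 partners of mitotic kinesins, 15 fell and 0 rose, with a median difference of −0.24, against 11.6% and 8.45% of all genes. PLK1, the kinase that docks on KIF20A, was at 8.18 ± 0.06 in shCPVL cells and 8.87 ± 0.07 in shCtrl cells (SD, n = 3 each), a fall of 0.68. Of the chromosomal passenger complex, the cargo of KIF20A, BIRC5 fell by 0.62 and INCENP by 0.45 (SE 0.05 each). Their groups did not overlap. The list shares genes with the cell division genes of earlier results on these arrays and is not independent of them.

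Of 28 partners of transport kinesins, 2 fell and 5 rose, with a median difference of 0.07, against 11.6% and 8.45% of all genes. The share called in either direction is thus near the 20.1% of all genes. SYBU, which encodes syntabulin, an adaptor that links KIF5 heavy chains to mitochondria and syntaxin vesicles, read 9.53, 9.49 and 9.48 in shCPVL cells, against 8.58, 8.57 and 8.44 in shCtrl cells. The groups were far apart, and SYBU rose by 0.97 (SE 0.06, limma adjusted p = 2.3e-05), a larger difference than that of any of the 38 kinesins. The trafficking adaptor genes TRAK1 and TRAK2, which couple KIF5 heavy chains to mitochondria, went opposite ways. TRAK2 fell by 0.45 (SE 0.05, limma adjusted p = 5.6e-04), and TRAK1, chosen after its value was seen, rose by 0.23 (SE 0.05, limma adjusted p = 0.015). PLEKHM1, an adaptor of late endosomes and lysosomes, rose by 0.26 (SE 0.04, limma adjusted p = 0.0048). The kinesin light chain genes KLC1, KLC2, KLC3 and KLC4 did not pass (−0.04 to 0.09).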

How the data were processed

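RNA of 3 shCPVL and 3 shCtrl samples was measured on Affymetrix 3′ expression arrays. The authors deposited log2 values of 49395 probe sets. RMA is the tool named for them, per the submitters' processing notes, with no version. The authors also deposited a comparison table with a log2 fold change, a p-value and FDR, a linear fold ratio and a signed score. Only its Entrez identifiers and alignments were used, and its log2 column matched shCPVL minus shCtrl means.

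Probe sets with exactly 1 Entrez identifier (46869) were named through RefSeq GRCh38.p14 (46726 matched, 18712 genes), with the brightest probe set per gene and no filter on low values. Genes were fitted with limma 3.58.1 in R 4.3.3 (lmFit, eBayes, two-sided), adjusted over all genes, and probe sets were fitted likewise over 49293. The code was tested on simulated data. The members, classes and lists were chosen with earlier results of these data known. The naming rule took CPVL, all kinesins and, of each other list, called kinesins with other symbols and up to 3 called members with the greatest difference. RACGAP1, KIFAP3, the KLC genes, TRAK1, KIFC2, KIFC3, DYNC1H1, DYNLT1, DCTN4, NDEL1 and the uncalled cell markers named fall outside this rule and were chosen after their values were seen, as were the KIF1B alignment groups. The alternatives were other normalizations, a replicate block, trend, array weights, other uses of probe sets, a filter on dim genes, a minimum fold, other class limits and the removal of each array. The number of arrays limits the precision. Motif windows came from RefSeq GRCh38.p14.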

Additional observations from a re-analysis of the deposited data

How the results depend on the processing

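Of 559 values of single kinesins under 15 alternatives, 510 kept their direction and side of the threshold or passed in neither setting, 32 lost their call, 15 gained one and 2 turned. With the median of the probe sets, KIF1B was at −0.11 and KIF9 at 0.058, since their probe sets differ. In all, 8 kinesins kept their call under each of these 15 alternatives that gave them a value. The minimum fold is not among the 15, and KIF18A, with a fold of 1.19, does not reach 1.2. KIF15 has no value without shared probe sets. The mitotic count of 9 falls stayed within 6 to 9, with 6 at a fold of at least 1.2, and 0 rose under any alternative. The transport counts were less stable. Falls numbered 3 with trend or without the dimmest 40% of genes, 5 with array weights, 2 with the mean or median of probe sets and 0 without shared probe sets (suffix x_at or s_at). Rises numbered 0 with the mean or median of probe sets, 1 with the replicate block, 1 at a fold of at least 1.2 and 1 to 3 when an array was left out. They numbered 4 with another quantile normalization or without the dimmest 40% of genes, and 2 with trend or without shared probe sets. Of the other kinesins, 4 fell and 2 rose with array weights, and 1 fell with the mean or median of probe sets. The mitotic minus transport mean (−0.28) was −0.26 with the mean of probe sets, −0.24 with their median and −0.30 without shared probe sets. Over all genes, 3757 calls became 9761 with array weights, and 2380 to 3282 when an array was left out. The count was lowest without shCPVL replicate 2 and without shCtrl replicate 1 (2438). These same arrays had the largest weights, 6.84 and 3.96, and the others had 0.38 to 0.51. The weighted fit thus rests mostly on 1 array per group. The cause of these changes in count was not tested. With TTTGAA or TTCGAA, 7 mitotic windows matched upstream of the start.

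The deviations of same-numbered arrays from their group means correlated at −0.28, 0.12 and 0.26 over genes. The highest values lay across numbers, at 0.40 for shCPVL 1 with shCtrl 2 and 0.33 for shCPVL 3 with shCtrl 1. The value largest in size was negative and also lay across numbers, at −0.46 for shCPVL 3 with shCtrl 2. The numbers were not taken as pairs. The replicate block left 7 mitotic falls, 1 transport fall and 1 transport rise, and 3079 calls over all genes. Differences of dim genes are compressed, and the number of arrays limits what can be seen.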

Other observations

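Dynein and its cofactor dynactin move cargo towards the minus ends of microtubules, against most kinesins. Of 29 genes of this machinery, 5 fell and 3 rose, with a median difference of 0.004. Over all genes 11.6% fell and 8.45% rose, so the share called here is near that of all genes. SPDL1, the adaptor that recruits dynein to kinetochores, read 10.84, 10.80 and 10.78 in shCPVL cells and 11.13, 11.19 and 11.12 in shCtrl cells, a fall of 0.34 (SE 0.05, limma adjusted p = 0.0018). The dynactin subunit gene DCTN3 fell by 0.33 (SE 0.05, limma adjusted p = 0.0029), and the cargo adaptor gene BICD2 by 0.32 (SE 0.07, limma adjusted p = 0.017). DYNLT1, a dynein light chain gene, rose by 0.23 (SE 0.05), DCTN4, another dynactin subunit gene, by 0.22 (SE 0.05) and NDEL1, a dynein regulator gene, by 0.22 (SE 0.05), with limma adjusted p = 0.014, 0.014 and 0.021. The groups of these 6 genes did not overlap. DYNC1H1, the heavy chain of cytoplasmic dynein, was at 10.43 ± 0.04 in shCPVL cells and 10.42 ± 0.06 in shCtrl cells (SD, n = 3 each), with overlapping groups.

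Of 10 oligodendrocyte lineage markers 2 rose, PDGFRA by 0.36 and CNP by 0.32, and 0 fell, where 8.45% of all genes rose and 20.1% were called in either direction. Of 10 microglia and macrophage markers and 8 endothelial markers 0 were called by limma at an adjusted p under 0.05. At an unadjusted limma p under 0.05 these were 1 microglia and macrophage marker, CD68, and 0 endothelial markers. The share of all genes at this looser threshold was not counted, so these 2 counts cannot be judged against it.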
